A study of Mus musculus with 18 samples.

Results

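Trimethylation of lysine 4 on histone H3 (H3K4me3) was compared between cerebella of Chd4 conditional knockout (cKO) mice and wild-type (WT) mice at postnatal day 22 (P22). The members are all promoters of the authors' table that have a score in each of the 4 H3K4me3 libraries of that age, and they number 23 of the 24 in the table. The promoter left out, Nt5dc2, has scores in WT columns only. The series holds 18 samples of 3 histone marks and input chromatin, and the 4 libraries used here are 2 of WT P22 and 2 of Chd4 cKO P22 cerebellum. A pair of H3K4me3 libraries of WT mice at postnatal day 6 (P6) entered the fit to estimate the spread between replicates. They also counted in the score filter that decides which promoters are tested. In addition, the authors' mean H3K4me3 curves of WT and cKO were read from -5000 to 5000 bp around the transcription start site (TSS). The labels give each group by genotype, age and tissue alone: the floxed allele, the Cre driver, the strain and the number of mice behind a library are not named there.

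H3K4me3 is laid down around the start sites of genes by the SET1 and MLL methyltransferases and is the histone mark most tied to active or poised promoters. It is usually strongest on the nucleosomes just downstream of the TSS and at promoters rich in CpG dinucleotides. Chd4 is the ATP-dependent motor of NuRD, a complex that joins nucleosome remodeling to histone deacetylation. In the cerebellum, whose most numerous cells are granule neurons, the weeks after birth are a time of synapse formation and maturation.

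The score is the authors' own value around each TSS. It falls below 0 at some promoters, so it is no read count, and its zero, its scaling between libraries and the depth behind it are unknown. Mean scores over the 23 promoters were 5.16 and 7.96 in WT replicates 1 and 2, and 11.0 and 20.5 in cKO replicates 1 and 2. The means of the cKO were thus higher than those of WT in each pairing, but an exact two-sided permutation test of these 4 means gave p = 0.333, and 2 against 2 libraries allow nothing lower. Replicate 2 was above replicate 1 at 14 of 18 tested promoters in WT and at 17 of 18 in the cKO, by medians of 0.37 and 0.72 on the log2(score + 2) scale, and the part of this library-wide shift in the genotype difference was not tested. No source states that replicates were separate animals, so p-values cover only the spread between libraries, which may be technical. None of 19 cell type markers of the cerebellum and none of 13 NuRD subunits, Chd4 included, is among the 24 genes, so neither the tissue nor the genotype label was checked. The labels' protocol starts from cerebella and names no sorting of cells, and a change in the share of a cell type cannot be told apart from a change of the mark per cell.

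Promoter sequences show how different the members are before any value is read. The 250 bases upstream of the start are given for the pair with the largest differences on the log2(score + 2) scale, Nhlh1 and Cda, and for a pair that did not pass the test or the score filter, Timp2 and Hmcn2, all 4 chosen after their values were seen. Sequences are from RefSeq (GRCm38.p6), matched by symbol, 5′ to 3′ on the gene's strand, with CpG dinucleotides (the letters CG, which read the same on both strands) in capitals. The table's own positions are on mm9 and were not converted, so the start in RefSeq may differ from the one the authors used.
Nhlh1, chr1:172057597-172057846, minus strand: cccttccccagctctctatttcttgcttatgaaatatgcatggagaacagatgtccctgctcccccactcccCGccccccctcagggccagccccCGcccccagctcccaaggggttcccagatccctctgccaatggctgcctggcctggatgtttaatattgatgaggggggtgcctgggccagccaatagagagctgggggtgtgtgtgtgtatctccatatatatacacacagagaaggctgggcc
Cda, chr4:138367956-138368205, minus strand: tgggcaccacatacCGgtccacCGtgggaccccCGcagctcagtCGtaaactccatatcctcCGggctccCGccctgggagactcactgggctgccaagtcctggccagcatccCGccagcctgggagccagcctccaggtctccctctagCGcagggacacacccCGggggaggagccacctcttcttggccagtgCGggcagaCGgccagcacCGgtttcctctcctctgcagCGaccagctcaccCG
Timp2, chr11:118355412-118355661, minus strand: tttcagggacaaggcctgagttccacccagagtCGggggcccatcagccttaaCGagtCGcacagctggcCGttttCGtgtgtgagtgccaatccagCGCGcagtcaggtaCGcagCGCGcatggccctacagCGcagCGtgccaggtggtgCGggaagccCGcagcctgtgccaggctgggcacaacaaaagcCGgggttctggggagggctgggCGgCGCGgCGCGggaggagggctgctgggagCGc
Hmcn2, chr2:31314082-31314331, plus strand: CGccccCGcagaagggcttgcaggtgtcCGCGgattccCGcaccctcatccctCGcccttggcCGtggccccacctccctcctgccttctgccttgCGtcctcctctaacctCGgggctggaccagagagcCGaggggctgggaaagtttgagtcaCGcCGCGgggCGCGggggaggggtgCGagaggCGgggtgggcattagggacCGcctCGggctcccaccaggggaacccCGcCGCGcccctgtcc

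The Nhlh1 window holds 2 CpGs, fewer than most: 81.2% of the 32841 promoter starts in the RefSeq table hold as many or more, and the median is 6. The Cda window holds 14 CpGs, a number reached by 29.4% of starts. The Timp2 and Hmcn2 windows hold 21 and 22, reached by 16.4% and 14.8% of starts. Of 22 genes looked up, 14 were in the table of sequences, and 9 of these had 1 start on the strand that the authors' table gives. Among those 9 the other counts were 11 at Syde1, 9 at Cplx3, 6 at Duox2, 4 at As3mt and 3 at Casq1. Nhlh1 and Cda, the pair with the largest log2 differences, thus differed widely in CpG count. Hmcn2, with the most CpGs of the 9, had scores below 0 in all 4 libraries. Whether these windows lie at the scored starts was not checked, so the CpG count of Hmcn2 may belong to another start than its score.

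The comparison asked which promoters carry more or less of the mark after loss of Chd4. Of 18 promoters tested, 9 (50%) had higher H3K4me3 in the cKO and 0 had lower (limma with Benjamini-Hochberg adjustment, threshold 0.05), and at an unadjusted p under 0.05 the counts were also 9 and 0. With the replicate number as a block, 15 of 18 (83.3%) were higher and 0 lower. Among the 9 were the neuronal genes Nhlh1, Elavl2, Arc, Oprl1 and Syde1 and the metabolic enzyme genes Cda and As3mt. The remaining 5 of the 23 members had scores too low to be tested, since a score of at least 1 was required in at least 2 of 6 libraries. Cda and Cplx3 met that requirement only through their cKO libraries, so the p given for these genes is from a fit of all 23 members without the filter, in which 9 (39.1%) were higher, with Cpne6 in and Arc out. Nhlh1 and Elavl2 scored below 1 in both WT libraries of P22 and met the requirement through their cKO and P6 libraries. Both passed without the filter (limma adjusted p = 3.24e-05 and 0.0035). The median log2 difference was 0.94. Subtracting from every library its median puts that value near 0 by construction, so only differences relative to the other promoters remain. On that scale 4 promoters were higher (Nhlh1, Cda, As3mt and Oprl1) and 1 lower. On the score without a log 0 promoters were called, and with each promoter's own spread 3 were (Nhlh1, Elavl2 and Cda). Wherever Cda is counted in a fit with the filter, it entered only through its cKO libraries. At 16 of 23 promoters (69.6%) the lower cKO score exceeded the higher WT score, at 1 (4.35%) the order was the opposite, and at 6 the groups overlapped.

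**Figure D1:**
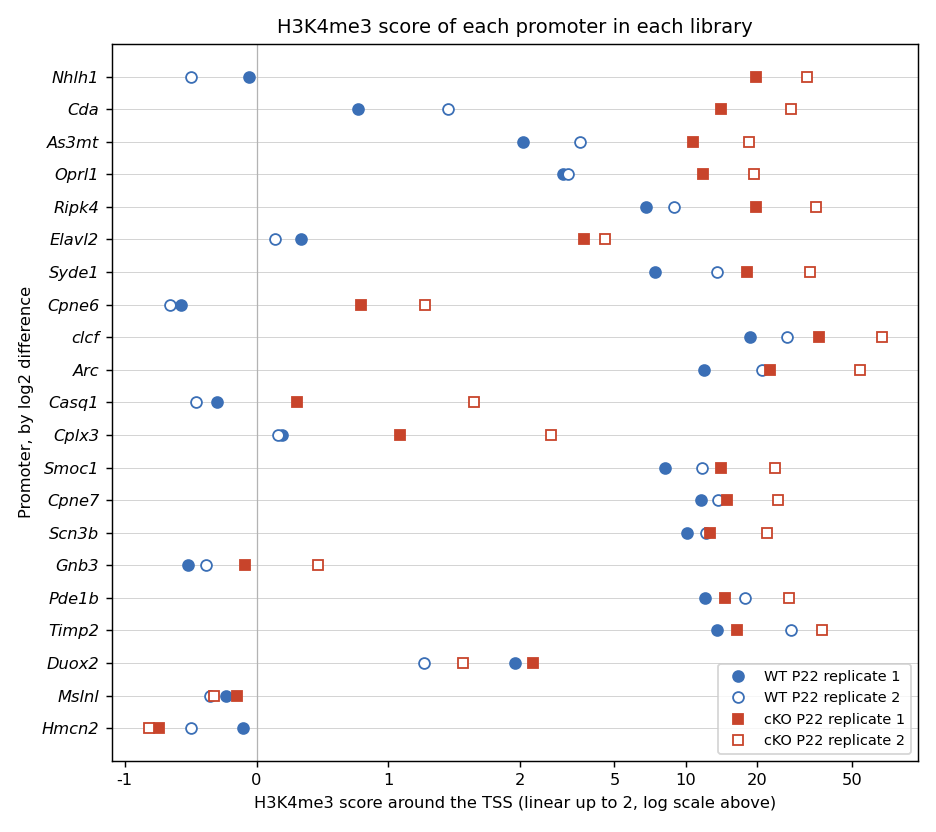
H3K4me3 score around the TSS (horizontal axis, linear up to 2 and logarithmic above) of 21 named promoters (vertical axis, ordered by log2 difference) in the 2 WT libraries (circles) and 2 cKO libraries (squares), with filled symbols for replicate 1 and open symbols for replicate 2. The groups are widest apart at Nhlh1, overlap at Pde1b, Timp2, Duox2 and Mslnl, and have the cKO below WT at Hmcn2.

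Both genes of the list of neuronal transcription and RNA-binding factors rose, where 50% of all tested promoters did. Nhlh1 encodes a basic helix-loop-helix factor of neurons that have just left the cell cycle, and the table places its TSS at position 173987694 of chromosome 1 (mm9). Its H3K4me3 score was -0.06 and -0.50 in the WT libraries and 19.7 and 32.4 in the cKO libraries. The lowest cKO score thus lay 19.7 above the highest WT score, from a WT level just under 0. The difference on the log2(score + 2) scale was 4.00 ± 0.42 (SE, limma adjusted p = 8.8e-12). Its size rests on the constant added, since WT lay below 0: it was 5.26 with a pseudocount of 1, 2.69 with 5 and 1.21 with 20 (limma adjusted p = 0.0150). The limma adjusted p of 8.8e-12 rests on a spread pooled over all promoters. With the spread of Nhlh1 alone the adjusted p was 0.0135. The limma adjusted p was 0.00149 after median centring and 3.24e-05 without the filter. At P6, WT libraries scored 37.0 and 50.1 at Nhlh1, above both cKO libraries of P22. Elavl2, an RNA-binding protein gene of neurons (chromosome 4, position 91066675), scored 0.34 and 0.14 in WT and 3.73 and 4.57 in cKO. All 4 values are low for the table, yet the replicates of each group lay close together. The log2 difference of Elavl2 was 1.46 with limma adjusted p = 0.00342, and it fell to 0.25 (limma adjusted p = 0.129) with a pseudocount of 20 in place of 2.

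Of the 9 synaptic, signalling and excitability genes, 7 were tested, 3 rose and 0 fell, and at 8 of the 9 the groups did not overlap, with the cKO higher. Over all promoters these shares were 50% of 18 tested and 69.6% of 23. Oprl1 encodes the nociceptin receptor, a G protein-coupled receptor of the opioid family (chromosome 2, position 181449749). It scored 3.04 and 3.20 in WT and 11.8 and 19.3 in cKO, a log2 difference of 1.74 (limma adjusted p = 5.97e-04). The groups did not overlap, and the spread lay almost wholly in the cKO pair. Syde1, a gene linked to presynaptic assembly (chromosome 10, position 78054709), scored 7.41 and 13.5 in WT and 18.2 and 33.5 in cKO. Arc, an immediate early gene whose protein acts in AMPA receptor endocytosis (chromosome 15, position 74503000), scored 11.9 and 20.9 in WT and 22.7 and 54.2 in cKO. The log2 differences were 1.15 for Syde1 and 1.06 for Arc (limma adjusted p = 0.0231 and 0.0304). At Arc the lower cKO library stood only 1.80 above the higher WT library, the narrowest gap among the promoters that rose. Neither Syde1 nor Arc passed without WT replicate 1 (limma adjusted p = 0.327 and 0.384) or without cKO replicate 2 (limma adjusted p = 0.276 and 0.500), and Arc did not pass without the score filter (limma adjusted p = 0.0831). Where a library is left out, its group has 1 library, which is assumed to vary like the libraries of the other groups.

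The other tested genes of that list had smaller differences. Cplx3, a complexin gene known from ribbon synapses, scored 0.19 and 0.16 in WT and 1.09 and 2.71 in cKO, a log2 difference of 0.81 (limma adjusted p = 0.0585 without the filter). With the replicate block the limma adjusted p was 0.00351, in a fit that Cplx3 entered only through its cKO libraries. Cpne7, a copine gene of the calcium-dependent phospholipid-binding family, scored 11.6 and 13.7 in WT and 15.0 and 24.5 in cKO. Scn3b, a sodium channel beta subunit gene, scored 10.1 and 12.2 in WT and 12.6 and 22.0 in cKO. At both genes the groups were separate but near each other, and limma gave adjusted p = 0.270 and 0.276 for their log2 differences of 0.54 and 0.51. With the replicate block both passed (limma adjusted p = 0.0426 and 0.0491). Pde1b, a calmodulin-dependent phosphodiesterase gene, overlapped between genotypes, with 12.0 and 17.7 in WT and 14.6 and 27.2 in cKO. Its log2 difference of 0.41 (limma adjusted p = 0.386) turned to -0.53 (limma adjusted p = 0.0264) when libraries were centred on their medians. Centring lowers the difference of every promoter by the same amount, so the sign is relative to the other promoters. Cpne6 and Gnb3 were under the score filter and are described with the low promoters.

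Both metabolic enzyme genes with values in the 4 libraries rose, against 50% of all tested promoters. Cda encodes cytidine deaminase of pyrimidine salvage (chromosome 4, position 137923870). It scored 0.77 and 1.45 in WT and 14.0 and 27.9 in cKO, a log2 difference of 2.82 (limma adjusted p = 3.76e-04 without the filter). The difference was 3.32 with a pseudocount of 1 and 0.94 with one of 20. Even the lower cKO library was 12.6 above the higher WT library. WT libraries of P6 scored -0.11 and 0.23 at Cda, so that, unlike at Nhlh1, P6 was not above the cKO of P22. As3mt, the arsenite methyltransferase gene (chromosome 19, position 46781933), scored 2.05 and 3.57 in WT and 10.7 and 18.5 in cKO. Its log2 difference was 1.77 (limma adjusted p = 5.97e-04), and the lowest cKO score was 7.14 above the highest WT score.

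The list of secreted and matrix proteins has 4 members, of which 3 were tested, 1 rose and 0 fell, beside 50% higher among all tested promoters. The member that rose is clcf, whose place in the list is unchecked. The promoter listed as clcf (chromosome 19, position 4214392), which matched no gene symbol and whose protein is therefore not described, scored 18.7 and 26.6 in WT and 36.3 and 67.0 in cKO. It had the highest score of the table in the cKO and, at 29.0, the largest difference of mean scores among all 23 members, ahead of Nhlh1 with 26.3 and Arc with 22.1. On the log2 scale, where its WT level counts, the difference was 1.08 (limma adjusted p = 0.0304), and it was not called without WT replicate 1 (limma adjusted p = 0.327) or without cKO replicate 2 (limma adjusted p = 0.305). Smoc1, whose product is a calcium-binding protein of basement membranes, scored 8.20 and 11.7 in WT and 14.1 and 23.7 in cKO, separate but with limma adjusted p = 0.114. It passed with the replicate block (limma adjusted p = 0.00432) and without cKO replicate 1 (limma adjusted p = 0.0258). Timp2, an inhibitor gene of matrix metalloproteinases, scored 13.6 and 27.8 in WT and 16.5 and 37.4 in cKO. At Timp2 the difference between replicates of a genotype was larger than that between genotypes, and the groups overlapped (log2 difference 0.32, limma adjusted p = 0.474).

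The epithelial list has 3 genes, of which 2 were tested, 1 rose and 0 fell, the same share as the 50% over all promoters. Ripk4, a kinase gene of keratinocyte differentiation (chromosome 16, position 97985362), scored 6.80 and 8.95 in WT and 19.7 and 35.3 in cKO. The log2 difference was 1.53 (limma adjusted p = 0.00231) and the groups were 10.8 apart, but without WT replicate 1 the limma adjusted p was 0.0534. Duox2, an NADPH oxidase gene of thyroid and mucosal epithelium, scored 1.96 and 1.27 in WT and 2.26 and 1.57 in cKO. The values interleave, with a log2 difference of 0.12 against an SE of 0.42.

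H3K4me3 was near 0 in WT at 8 promoters, those with scores below 1 in both WT libraries: Nhlh1, Elavl2, Cplx3, Casq1, Cpne6, Gnb3, Hmcn2 and Mslnl. These 8 did not behave alike. In the cKO, 3 of them (Nhlh1, Elavl2 and Cplx3) scored at least 1 in both libraries, and 3 (Gnb3, Hmcn2 and Mslnl) stayed below 1 in both. Cpne6, a copine gene of the brain, scored -0.57 and -0.66 in WT and 0.79 and 1.28 in cKO, and in a fit without the score filter it passed (log2 difference 1.13, limma adjusted p = 0.0100). Casq1, which encodes the calcium store protein calsequestrin of skeletal muscle, scored -0.30 and -0.46 in WT and 0.31 and 1.65 in cKO (limma adjusted p = 0.0585 without the filter). Gnb3, a G protein beta subunit gene of photoreceptors, scored -0.52 and -0.38 in WT and -0.09 and 0.47 in cKO. Both cKO libraries were above both WT libraries at these 3 genes, all at scores under 2.

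Hmcn2, a hemicentin gene of the extracellular matrix, was the promoter at which both cKO libraries lay below both WT libraries. It scored -0.10 and -0.50 in WT and -0.74 and -0.82 in cKO, and its log2 difference of -0.47 did not pass in the fit without the filter (limma adjusted p = 0.181). Mslnl, a mesothelin-like gene, scored -0.23 and -0.35 in WT and -0.15 and -0.32 in cKO, values that interleave. With scores this close to the unstated zero, neither member had H3K4me3 above 0 in any of the 4 libraries.

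The acetylation marks were set beside H3K4me3 at the same promoters to see where H3K4me3 differs from them. At Casq1, H3K27ac scored 1.61 and 1.72 in WT and 7.59 and 12.9 in cKO, and H3K9/14ac 0.78 and 0.65 against 3.95 and 8.30, while H3K4me3 stayed under 2. At Gnb3, H3K27ac went from 3.52 and 3.01 in WT to 10.2 and 13.0 in cKO with H3K4me3 scores under 1. H3K9/14ac at Gnb3 went from 2.12 and 3.53 to 4.41 and 7.78, a log2 difference of 0.73 beside 0.49 for H3K4me3. At the other end, Nhlh1 had a larger log2 difference in H3K4me3 than in H3K9/14ac by 1.42 ± 0.52 (SE) and than in H3K27ac by 1.32 ± 0.46. Both of these had limma adjusted p = 0.169. Oprl1 exceeded H3K27ac by 1.08 ± 0.45 (limma adjusted p = 0.254), and Casq1 and Gnb3 fell short of it by differences of -0.86 and -0.88 (limma adjusted p = 0.311 and 0.308). Against H3K9/14ac the differences were 0.62 at Oprl1, -0.68 at Casq1 and -0.24 at Gnb3 (limma adjusted p = 0.949 for each). The interaction term of mark and genotype called 0 of 22 promoters (0%) for each acetylation mark, with unadjusted p under 0.05 at 1 promoter for H3K9/14ac and at 2 for H3K27ac. With the replicate block 1 promoter was called, Nhlh1 against H3K9/14ac (1.42 ± 0.29, limma adjusted p = 1.13e-04). With a pseudocount of 1, Nhlh1 was called higher and Hmcn2 lower in H3K4me3 than in either acetylation mark (limma adjusted p from 0.00624 to 0.0249). The same constant was added to every mark, and whether scores of different marks share a scale is not stated. Where H3K4me3 lay near 0 in WT (Nhlh1, Casq1, Gnb3 and Hmcn2), the difference between marks therefore depends on that constant and on the size of each mark's scores.

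**Figure D2:**
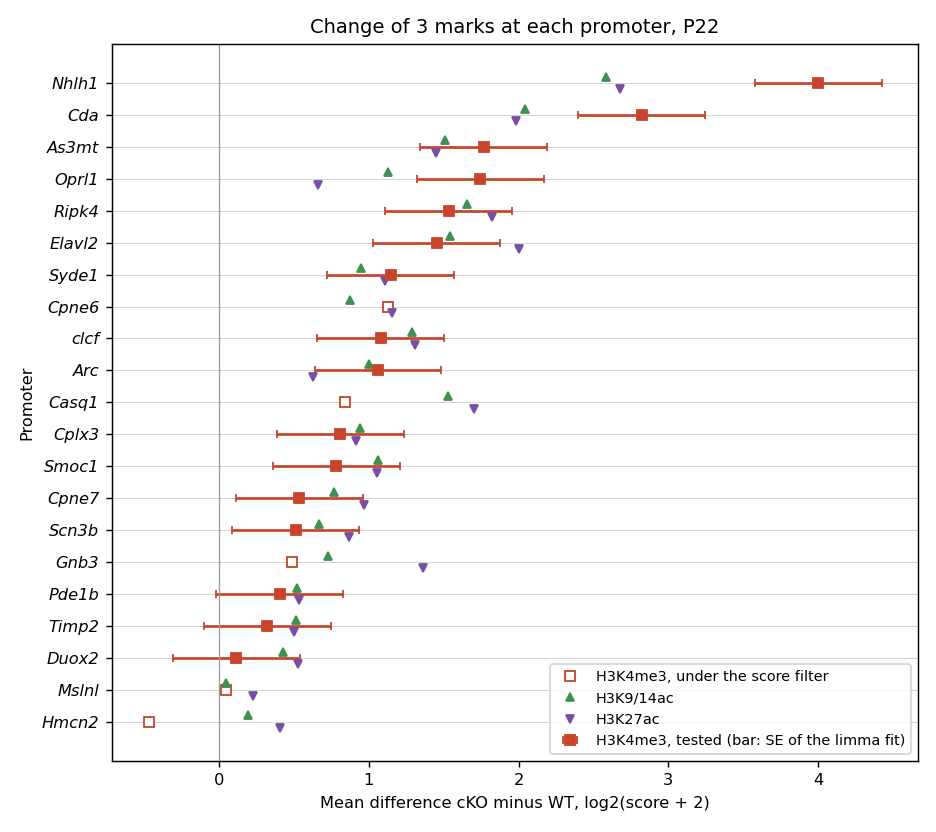
Mean difference cKO minus WT on the log2(score + 2) scale (horizontal axis) at 21 named promoters for H3K4me3 (squares, with the SE of the limma fit where tested), H3K9/14ac (triangles up) and H3K27ac (triangles down). Nhlh1 and Cda stand to the right of their acetylation marks, whereas Casq1, Gnb3 and Hmcn2 stand to the left.

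The mean curves show at which distances from the TSS H3K4me3 differed. The gain lay downstream: from 0 to 1000 bp the mean was 1.17 ± 0.24 in WT and 2.12 ± 0.62 in cKO, while over the 1000 bp upstream it was 0.51 ± 0.10 and 0.59 ± 0.15. Errors are the authors' error columns averaged over positions. They are named standard errors, but their values have the steps of an SD of 2 libraries, and which of these holds is not stated. A position was counted as apart where the gap between the curves exceeded their summed errors. This held with cKO higher at 41% of 10001 positions and with cKO lower at 4.05%. The longest unbroken stretch with cKO higher ran from 232 to 2716 bp downstream, 2485 positions in all. If the error is read as the SD of 2 libraries, both cKO libraries were above both WT libraries from 91 to 2722 bp. No library is given separately and the averaged genes are not named, so the curves were not tested, and neighbouring positions are not independent.

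**Figure D3:**
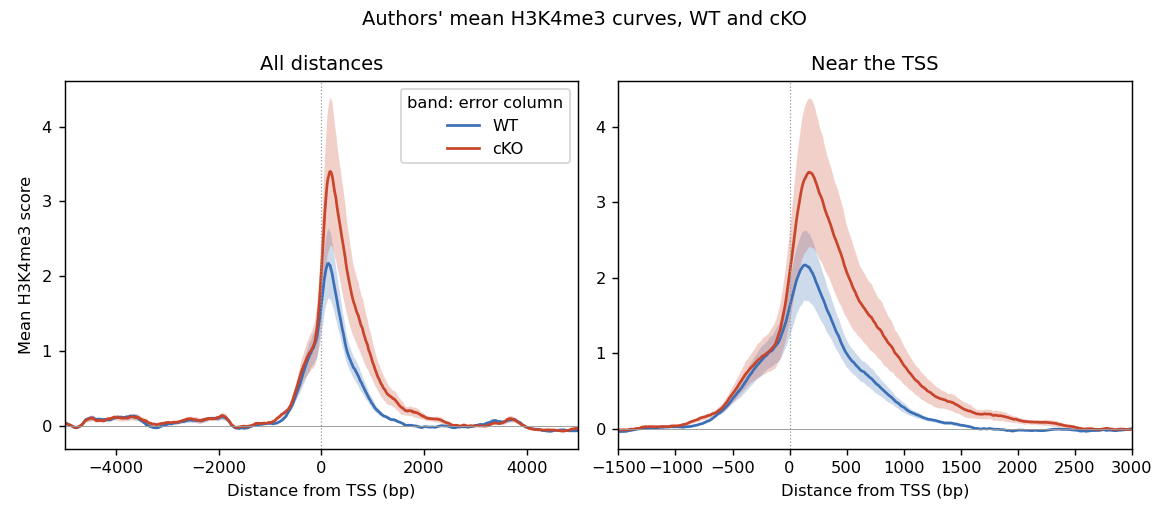
The authors' mean H3K4me3 score (vertical axis) against distance from the TSS in bp (horizontal axis) for WT and cKO, with the error column as a band, over all distances (left) and near the TSS (right). From -500 to -1 bp the bands overlap, and from 232 to 2716 bp downstream they are apart. The cKO curve peaks at 3.40 ± 0.99 (170 bp) and the WT curve at 2.18 ± 0.47 (135 bp), both before that stretch, where the bands still overlap.

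Close upstream of the TSS the gap between the curves stayed within their errors. From -250 to -1 bp WT averaged 1.15 ± 0.24 and cKO 1.26 ± 0.35, with 0% of positions apart. The same share held from -500 to -251 bp, with 0.65 ± 0.13 and 0.73 ± 0.17. Farther out, on the upstream shoulder from -1000 to -751 bp, the levels were only 0.040 ± 0.005 and 0.091 ± 0.022, and 98% of positions were apart. The longest stretch there ran from -979 to -669 bp, 311 positions. A stretch of 308 positions ran from -3381 to -3074 bp, where WT averaged -0.018 and cKO 0.024. From -1750 to -1501 bp 76% of positions were apart, at -0.028 in WT and -0.014 in cKO. Separation beyond the errors thus also occurred at scores near 0, away from the shoulder. The excess of the cKO was larger near the TSS, 0.110 from -250 to -1 bp against 0.050 on the shoulder, but only on the shoulder did it exceed the errors at most positions of a 250-bp bin within 1000 bp upstream.

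Downstream the difference grew within a short distance and then decayed. It was largest at 235 bp, where WT stood at 1.93 ± 0.38 and cKO at 3.25 ± 0.92, a difference of 1.32. The difference stayed above 50% of that maximum from 41 to 907 bp. Mean scores from 500 to 749 bp were 0.79 ± 0.15 in WT and 1.70 ± 0.50 in cKO, and from 1000 to 1249 bp they were 0.19 ± 0.04 and 0.63 ± 0.19. From 1750 to 1999 bp WT was at -0.012 ± 0.007, between the levels of its outermost windows (0.055 upstream and -0.060 downstream), while cKO was still at 0.162 ± 0.057. All positions of the 250-bp bins from 250 to 2499 bp were apart. Beyond 3000 bp the order turned: from 3091 to 3460 bp cKO was lower, at 0.012 against 0.041. From 4000 to 4999 bp the means were -0.055 ± 0.008 in cKO and -0.060 ± 0.007 in WT, a difference within the summed errors. By position, cKO was apart and higher at 25.7% and lower at 0%, all in a window whose means lay below 0.

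The shape of the H3K4me3 domain shifted accordingly. The positions at 50% of each curve's own maximum were -130 and 469 bp in WT and -32 and 608 bp in cKO, so the span was 599 and 640 bp wide but lay farther downstream in the cKO. Of the area from -2000 to 3000 bp, 30.2% was upstream of the TSS in WT and 19.7% in cKO. Of the difference in that area, 6.31% was upstream and 93.7% downstream, including 24.2% beyond 1000 bp.

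This one-sided pattern was set against the acetylation curves, read in the same way. The span at 50% of the maximum also lay farther downstream in the cKO for H3K9/14ac. Its edges were -376 and 694 bp in WT and -103 and 983 bp in cKO, a larger move than in H3K4me3. The edges of H3K27ac were -414 and 661 bp in WT and -490 and 969 bp in cKO. The upstream share of the area fell in both acetylation marks: H3K9/14ac had 34.4% in WT and 28.2% in cKO, H3K27ac 36.6% and 33.3%. The upstream share of the difference was 22.9% for H3K9/14ac and 30.9% for H3K27ac, against 6.31% for H3K4me3. Between -1000 and -1 bp, 100% of positions were apart for each acetylation mark and 32.7% for H3K4me3. Over all distances the share apart with cKO higher was 93.3% for H3K9/14ac and 100% for H3K27ac, against 41% for H3K4me3, and with cKO lower it was 0% for both. In the outermost upstream 1000 bp, H3K4me3 was 0.055 ± 0.019 in WT and 0.052 ± 0.018 in cKO. There H3K9/14ac was 0.105 ± 0.014 in WT and 0.150 ± 0.024 in cKO, and H3K27ac 0.105 ± 0.003 and 0.211 ± 0.027. The acetylation shares over all distances thus include a difference far from the TSS. The difference between marks in these shares was not tested, for want of separate libraries. The largest differences of the acetylation marks, 0.77 at 215 bp and 0.80 at 238 bp, lay close to that of H3K4me3 at 235 bp.

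**Figure D4:**
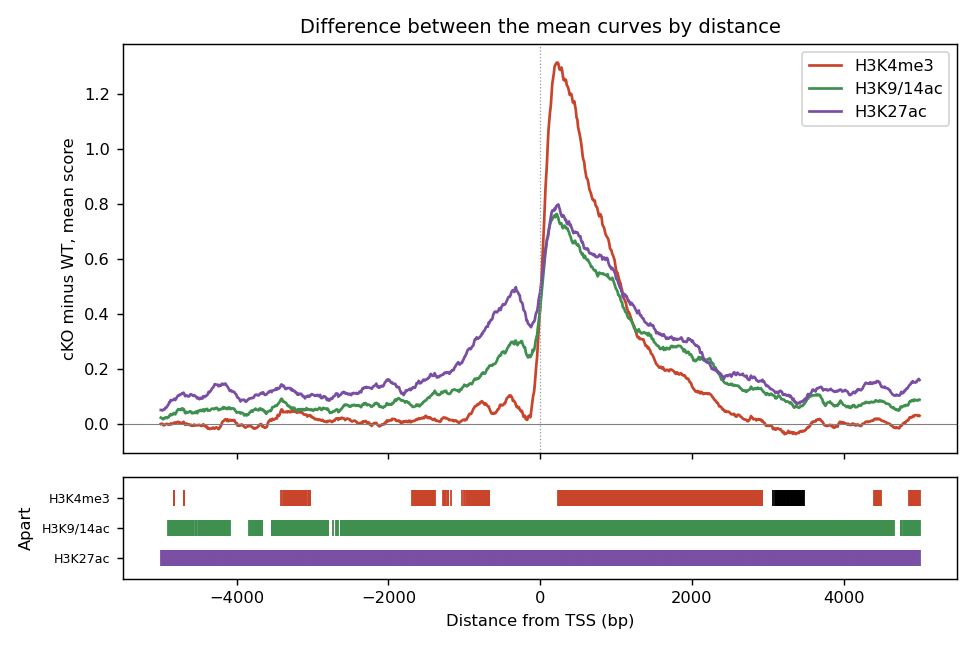
Difference cKO minus WT of the authors' mean curves (vertical axis, upper panel) against distance from the TSS in bp for 3 marks, and below it the positions where the gap exceeded the summed errors (coloured where cKO was higher, black where lower). H3K4me3 differs mainly downstream, from 232 to 2716 bp, whereas H3K27ac is apart at 100% of positions.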

How the data were processed

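ChIP-seq of H3K4me3 in cerebellum was used from 2 WT P22, 2 cKO P22 and 2 WT P6 libraries, grouped by sample titles. Reads were aligned with BWA to mm9, per the submitters' processing notes. The authors deposited a score per promoter and library and a mean score per position with an error column; how a score was made, and its depth, is not given in the sources used here. Column names lacking an age were taken to mean P22, the only age with cKO libraries. Scores were taken as log2(score + 2), promoters with a score of at least 1 in at least 2 of 6 libraries were fitted with limma 3.58.1 (R 4.3.3), with Benjamini-Hochberg adjustment over 18 promoters. Replicate numbers come from the titles, which do not say what they stand for; replicate differences correlated across promoters at 0.701 (WT with cKO), 0.323 and 0.638 (each with WT P6), so blocked values stand beside results whose call the block changes. Limma pooled the spread over promoters completely, so each has SE 0.423. Curves were averaged over windows, and the step test of the error column (tolerance 0.001) found 100% of values whole. The fit was also run on simulated data with independent noise and no shift shared by the promoters of a library. The libraries here do share such a shift, so that run cannot show the error rate for these data. Figures used matplotlib 3.10.9, with Python 3.11.15, numpy 2.4.6 and pandas 2.3.3.

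By rule, each promoter with values was described by role list, with every library's score for those that passed, but 2 promoters stayed in fits and counts but their values are not reported here. The members and lists were chosen with earlier results of these data known. Alternatives were pseudocounts of 1, 5 and 20, no filter, the 4 P22 libraries alone, a replicate block, median centring, no log, each promoter's own spread, each library left out, and other windows.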

Additional observations from a re-analysis of the deposited data

How the results depend on the processing

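All 9 rises in H3K4me3 kept their direction under the 13 alternatives run, but their number changed. It was 5 with a pseudocount of 20 (median log2 difference 0.32) and 4 after median centring, with 1 lower. Centring itself puts the median difference near 0 (0.00047). The number was 3 with each promoter's own spread and 0 without a log scale, where 5 had an unadjusted p under 0.05. Leaving out 1 library at a time gave 5 to 12 rises and median differences from 0.49 to 1.32; without WT replicate 1 there were 5 and without cKO replicate 2 there were 6. Nhlh1 and Cda kept their calls except without the log scale (limma adjusted p = 0.0802 for each). Cda, however, entered every fit with the score filter only through its cKO libraries. In the fit without the filter it passed (limma adjusted p = 3.76e-04). Of 208 results over 16 named promoters and 13 alternatives, 166 kept their side of the threshold, 34 lost a call, 7 gained one and 1 was reversed, Pde1b with -0.53 after centring. With the replicate block, 15 promoters rose, the 9 among them, and of the named promoters the block changed the call of Cplx3, Smoc1, Cpne7 and Scn3b; it changed no other call of a named promoter in this comparison.

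The interaction called 2 promoters for each acetylation mark with a pseudocount of 1, and 1 for H3K9/14ac with the replicate block. The mean difference of library means, 9.20, ranged from 4.47 (without cKO replicate 2) to 13.9 (without cKO replicate 1) with 1 library left out. The curve difference within 1000 bp of the TSS was 0.51, against 0.33 to 0.61 with other windows. Depth behind the scores is unknown.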
